A study of Homo sapiens with 16 samples.

Results

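The catecholamine genes described here are 9 genes chosen by name, TH, DDC, DBH, PNMT, GCH1, SLC18A1, SLC18A2, SLC6A2 and MAOA, out of the 27037 genes in the count table. All 9 passed the filter on low counts that left 15415 genes for testing. They were measured by RNA sequencing of poly(A) RNA in SK-N-BE(2)C, a human neuroblastoma cell line with amplified MYCN. SK-N-BE(2)C is a clone of the SK-N-BE(2) line, so every group stands for a single clonal line in culture. The 16 libraries fell into 4 groups of 4, and cells were treated for 5 days. The DMSO group had solvent alone, the PB group had 1 μM palbociclib (an inhibitor of the cyclin-dependent kinases CDK4 and CDK6), the RA group had 10 μM retinoic acid, and the PB+RA group had both drugs at those doses. DMSO was the solvent of both drugs, and all 4 groups were grown in the same serum-containing medium. The study's methods treat each replicate as a separate experiment on cells of another passage. The comparisons ask how each drug alone, and each drug added to the other, altered the RNA of the genes that make, store, take up and break down catecholamines.

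Catecholamines are made from tyrosine in a short chain of enzymes. TH (tyrosine hydroxylase) carries out the rate-limiting step to L-DOPA and needs the cofactor tetrahydrobiopterin, whose synthesis starts with GCH1 (GTP cyclohydrolase). DDC (aromatic L-amino acid decarboxylase) makes dopamine, DBH (dopamine beta-hydroxylase) turns dopamine into noradrenaline inside vesicles, and PNMT (phenylethanolamine N-methyltransferase) methylates noradrenaline to adrenaline in chromaffin cells of the adrenal medulla. SLC18A1 and SLC18A2 are the vesicular monoamine transporters, SLC6A2 is the noradrenaline transporter of the plasma membrane, and MAOA (monoamine oxidase A) degrades the amines at the mitochondrial surface. Neuroblastoma arises from the sympathoadrenal lineage, and the breakdown products of these amines are used to diagnose it.

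Library totals ranged from 19515779 to 31620821 counts. The noradrenergic markers PHOX2A, HAND2 and GATA2 were present in every group, with group means between 677 and 1176 CPM (CPM, counts scaled to a common library total). Of the 8 mesenchymal markers, 7 were in the table, and their sum was 1040 to 1323 CPM in DMSO, 806 to 965 CPM in PB, 1810 to 2250 CPM in RA and 1039 to 1509 CPM in PB+RA. The sum hides members that went in different directions. FN1 averaged 175 CPM in DMSO, 174 in PB, 733 in RA and 519 in PB+RA. VIM averaged 862, 576, 1058 and 607 CPM in the same order, so with PB+RA FN1 was higher than in DMSO and VIM lower. Of the 6 glial markers, 5 were in the table and summed to at most 54.6 CPM in any library, with the defining gene SOX10 at 0 in every DMSO, RA and PB+RA library. The retinoid-response genes CYP26A1 and RARB summed to 5.54 to 12.4 CPM without RA and to 69.8 to 242 CPM with it, and the proliferation genes MKI67 and E2F2 summed to 460 to 555 CPM in DMSO, 146 to 178 CPM in PB, 396 to 491 CPM in RA and 46.3 to 91.0 CPM in PB+RA. Replicates 1 and 2 stood apart from replicates 3 and 4 in every group on a principal component that carried 10.8% of the variance, and results that rest on either set are given for each set below. The part of the mesenchymal, glial and proliferation genes in the results below was not tested. In bulk RNA, fewer cells of a type and less RNA per cell cannot be told apart.

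On GRCh37, TH lies at chr11:2185159-2193045 on the minus strand, DDC at chr7:50526134-50633102 on the minus strand and GCH1 at chr14:55308726-55369544 on the minus strand. DBH (chr9:136501485-136524451), PNMT (chr17:37824234-37826728), SLC6A2 (chr16:55689900-55741557) and MAOA (chrX:43514155-43606064) lie on the plus strand. SLC18A2 lies at chr10:119000604-119038941 on the plus strand and SLC18A1 at chr8:20002366-20040717 on the minus strand. All 9 are protein-coding genes, and counts were taken over exons. Per kilobase of exon, DDC at 182 ± 25.3 (SD, n = 4) and DBH at 124 ± 21.0 CPM per kilobase were the most abundant of the 9 in DMSO cells, followed by SLC6A2 at 61.4 ± 2.08 and TH at 27.0 ± 4.07. The exon length took in every annotated exon of a gene, and the order depends on it. Without division by length, SLC6A2 averaged 494 CPM in DMSO and DBH 339 CPM. PNMT at 2.30 ± 0.770 and SLC18A1 at 1.10 ± 0.299 CPM per kilobase were the least abundant, so the enzyme of adrenaline synthesis and the vesicular transporter of chromaffin cells started from low levels. Together the 9 genes took 0.153% to 0.183% of all counts in DMSO libraries, 0.254% to 0.275% in PB, 0.185% to 0.227% in RA and 0.234% to 0.304% in PB+RA. Every treated library had a larger share than every DMSO library.

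A gene was called higher or lower when its Benjamini-Hochberg adjusted p from edgeR's quasi-likelihood test was below 0.05 and its log2 fold change was beyond 0.5 in size. This main fit had no term for the replicate number. With PB, 6 of the 9 genes were called, all of them higher than in DMSO, where 28.2% of all genes tested were called and 16.9% were called higher. With RA, 3 of 9 were called, all higher, where 13.3% of genes were called, 10.8% higher and 2.54% lower. With PB+RA, 7 of 9 were called, 6 higher and 1 lower, where 41.9% of genes were called, 24% higher and 17.9% lower. The median log2 fold change of the 9 genes was 0.77 with PB, 0.42 with RA and 0.84 with PB+RA, beside medians over all genes tested of 0.03, 0.01 and 0.04. The 3 comparisons share the DMSO libraries, and PB and RA alone were not tested against each other.

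**Figure D1:**
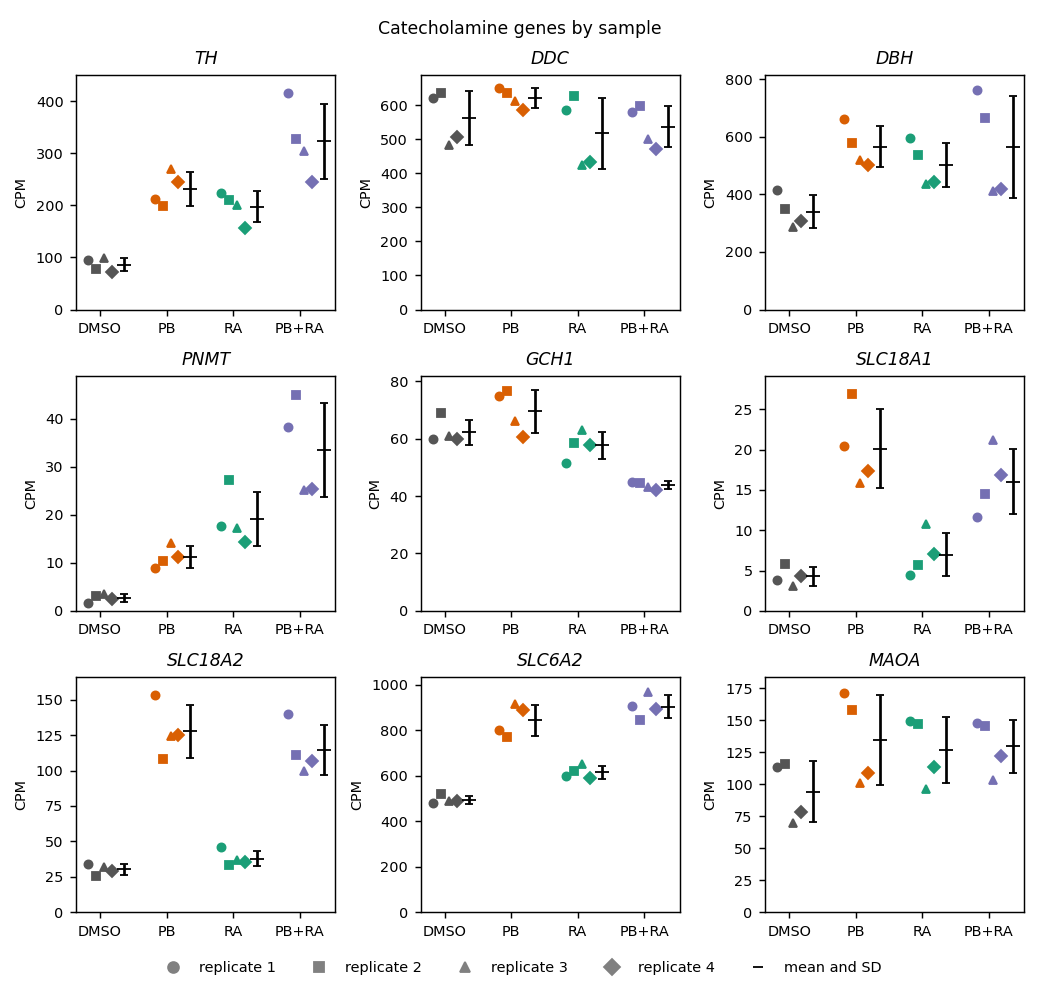
CPM of each of the 9 genes (vertical axis, from 0) in every library of the 4 groups (horizontal axis), with 1 marker shape per replicate number and the group mean with its SD beside the points. TH, PNMT, SLC18A2 and SLC6A2 in PB and PB+RA lie above all DMSO points, GCH1 in PB+RA lies below them, and DDC points overlap in all groups.

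TH rose with each drug. Its level was 94.6, 77.4, 99.1 and 72.4 CPM in DMSO replicates 1 to 4, and 212, 198, 270 and 245 CPM in PB. In RA it was 223, 210, 201 and 156 CPM, and in PB+RA 416, 327, 304 and 244 CPM. Every treated library exceeded every DMSO library. The rise was 2.69-fold with PB (log2 fold change 1.43, SE 0.17, adjusted p = 3.39e-06), 2.29-fold with RA (1.19, SE 0.16, adjusted p = 6.66e-05) and 3.69-fold with PB+RA (1.88, SE 0.17, adjusted p = 8.73e-08). PB and RA levels overlapped each other. Adding PB to RA raised TH by a log2 fold change of 0.69 (adjusted p = 0.00204), with no overlap between the groups. In replicates 3 and 4 alone that difference was 0.61 with an adjusted p of 0.0910. Adding RA to PB gave a log2 difference of 0.45 (95% interval 0.11 to 0.80, adjusted p = 0.0373), which is under the fold minimum. That difference was 0.84 in replicates 1 and 2 (adjusted p = 0.00197) and 0.07 in replicates 3 and 4 (adjusted p = 0.846), and leaving out PB replicate 3 (0.55) or PB+RA replicate 4 (0.58) took it past the minimum.

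GCH1, which starts the synthesis of the cofactor that TH needs, was called lower with PB+RA and in neither direction with PB or RA alone. It read 59.8, 68.8, 60.8 and 59.7 CPM in DMSO and 74.7, 76.5, 66.2 and 60.5 CPM in PB. The RA libraries held 51.4, 58.4, 63.0 and 57.8 CPM, and the PB+RA libraries 45.0, 44.5, 43.2 and 42.0 CPM. The PB+RA values lay below those of all the other libraries, while DMSO overlapped both PB and RA. GCH1 fell by 0.54 on the log2 scale against DMSO (SE 0.08, adjusted p = 1.09e-05) and by 0.70 against PB (SE 0.08, adjusted p = 3.67e-06). Against RA it fell by 0.42 (adjusted p = 0.00023), under the fold minimum, and by 0.51 in replicates 3 and 4 alone. With PB alone the log2 difference from DMSO was 0.16 (95% interval -0.0036 to 0.32, adjusted p = 0.0919), and with RA alone it was -0.12 (95% interval -0.28 to 0.04, adjusted p = 0.238).

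DDC, the decarboxylase that also serves serotonin synthesis, was called in none of the 5 comparisons of groups by edgeR and in none by DESeq2. In the main edgeR fit of all 16 libraries, no unadjusted p of DDC in these comparisons was below 0.05. Its level was 622, 636, 483 and 507 CPM in DMSO, and 651, 634, 612 and 586 CPM in PB. It was 585, 627, 423 and 433 CPM in RA and 578, 597, 500 and 472 CPM in PB+RA. All groups overlapped, and within each group replicates 1 and 2 were higher than replicates 3 and 4. The log2 difference from DMSO was 0.14 with PB (95% interval -0.13 to 0.42), -0.13 with RA (-0.40 to 0.14) and -0.09 with PB+RA (-0.37 to 0.18). With the replicate number as a block, DDC stayed under the fold minimum, with 0.16 for PB against DMSO (adjusted p = 0.0330) and -0.25 for PB+RA against PB (adjusted p = 0.00262), lower in 4 of 4 same-numbered pairs. RA was lower than DMSO in 4 of 4 pairs as well (-0.14 with the block, adjusted p = 0.0745). In replicates 3 and 4 alone, PB against DMSO gave 0.23 (adjusted p = 0.000268) and RA against DMSO -0.27 (adjusted p = 0.000131). PB+RA against PB gave -0.33 there (adjusted p = 1.57e-05). In replicates 1 and 2 the same differences were 0.02, -0.06 and -0.15, with adjusted p of 0.0711 or more. All of these stayed under the fold minimum. Of its exon bases, 114 are shared with the antisense gene DDC-AS1, which averaged 0.132 CPM.

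DBH rose with each drug alone and with both. In DMSO it was 417, 348, 286 and 306 CPM, and in PB 661, 578, 521 and 501 CPM. It stood at 594, 536, 436 and 443 CPM in RA and at 761, 665, 411 and 419 CPM in PB+RA. PB and RA libraries were all above the DMSO libraries, whereas PB+RA replicate 3 lay just below DMSO replicate 1. DBH was 1.67-fold higher with PB (log2 fold change 0.74, SE 0.19, adjusted p = 0.00442), 1.47-fold with RA (0.56, SE 0.19, adjusted p = 0.0342) and 1.63-fold with PB+RA (0.71, SE 0.19, adjusted p = 0.00436). The call with RA was lost without DMSO replicate 2 (0.56, adjusted p = 0.0660), 3 (0.46) or 4 (0.51), without RA replicate 1 (0.45) or 2 (0.52), with the wider filter (0.54, adjusted p = 0.0616) and with a correction for GC content and gene length (0.46, under the fold minimum). The RA call was kept with the replicate number as a block (0.56, adjusted p = 7.32e-05). It was also kept in replicates 1 and 2 alone (0.56) and in replicates 3 and 4 alone (0.51). RA exceeded DMSO in 4 of 4 same-numbered pairs, by 0.51 to 0.62 on the log2 scale. The block together with the GC and length correction gave 0.46, under the fold minimum. The call with PB+RA was lost without PB+RA replicate 1 (0.50, just under the minimum) and in replicates 3 and 4 alone (0.42). Neither drug added to the other gave a called difference in DBH (-0.03 against PB, with a 95% interval of -0.44 to 0.38, and 0.15 against RA, with a 95% interval of -0.26 to 0.56). Against PB the difference was 0.19 in replicates 1 and 2 and -0.33 in replicates 3 and 4. The antisense gene DBH-AS1, with a mean of 3.23 CPM, shares 4.30% of the exon bases.

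PNMT had the largest log2 fold change of the 9 genes with RA and with PB+RA. Its raw counts were 44, 77, 114 and 62 in DMSO, which is 1.56, 3.14, 3.61 and 2.40 CPM. It reached 8.88, 10.4, 14.2 and 11.3 CPM in PB and 17.7, 27.3, 17.2 and 14.4 CPM in RA. In PB+RA it was 38.3, 44.9, 25.2 and 25.5 CPM. Every treated library was above every DMSO library, and the lowest RA library (14.4 CPM) was just above the highest PB library (14.2 CPM). PNMT rose 4.16-fold with PB (log2 fold change 2.06, SE 0.29, adjusted p = 2.11e-05), 7.08-fold with RA (2.82, SE 0.28, adjusted p = 3.98e-06) and 12.2-fold with PB+RA (3.61, SE 0.29, adjusted p = 2.44e-08). Adding RA to PB raised it by a further 1.55 on the log2 scale (adjusted p = 0.000232) with no overlap. That difference was 2.10 in replicates 1 and 2 (adjusted p = 0.00176) and 0.97 in replicates 3 and 4 (adjusted p = 8.06e-05). Against DMSO, RA gave 3.27 in replicates 1 and 2 and 2.32 in replicates 3 and 4. PB+RA gave 4.14 and 2.99 in the same sets, and PB gave 2.04 and 2.02. Adding PB to RA raised PNMT by 0.79 (adjusted p = 0.0139), but the groups overlapped, and without PB+RA replicate 2 the difference was 0.60 with an adjusted p of 0.0624. Of the 3 chromaffin cell markers fixed for the check, PNMT itself and CARTPT were in the table, and PENK was not analysed here. CARTPT averaged 0.0669 CPM in DMSO, 0.217 in PB, 0.891 in RA and 0.612 in PB+RA, and its part in the PNMT result was not tested.

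**Figure D2:**
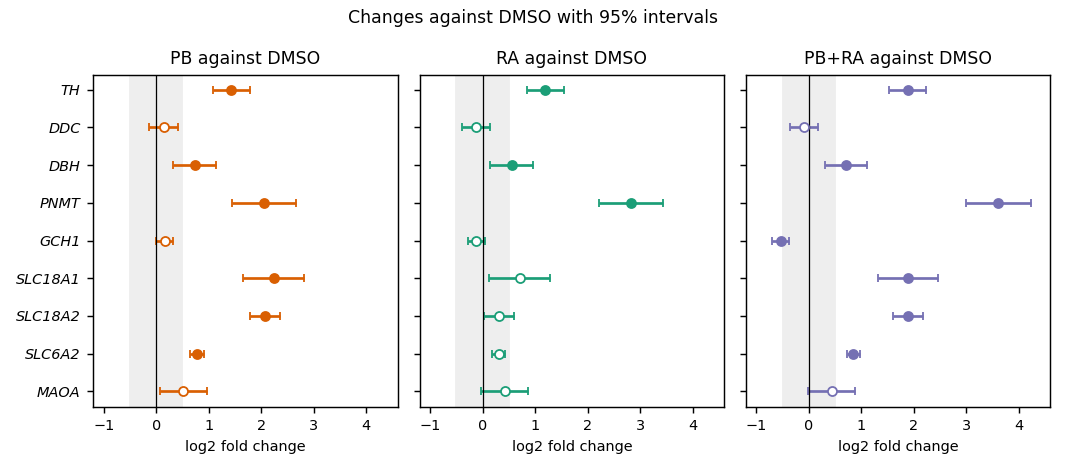
Log2 fold change of each of the 9 genes against DMSO (horizontal axis) with its 95% interval, in 1 panel each for PB, RA and PB+RA. Filled points were called, open points were not, and the grey band marks changes within 0.5. The intervals of PNMT lie farthest to the right with RA and with PB+RA, SLC18A1 and SLC18A2 reach 2.24 and 2.08 with PB and stay at 0.71 and 0.31 with RA, and DDC lies across 0 in each panel.

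The vesicular transporters were called higher with PB and were not called with RA. SLC18A2, the form found in neurons, read 34.3, 25.6, 32.0 and 28.9 CPM in DMSO and 153, 108, 124 and 125 CPM in PB. RA libraries held 45.9, 33.5, 36.5 and 35.4 CPM and PB+RA libraries 140, 111, 99.8 and 107 CPM. All PB and PB+RA libraries exceeded all DMSO and RA libraries. SLC18A2 was 4.22-fold higher with PB (log2 fold change 2.08, SE 0.13, adjusted p = 6.91e-09) and 3.71-fold higher with PB+RA (1.89, SE 0.13, adjusted p = 4.22e-09). With RA the log2 difference was 0.31 (95% interval 0.03 to 0.60, adjusted p = 0.0786). RA was higher than DMSO in 4 of 4 same-numbered pairs, by 0.19 to 0.42. With the replicate number as a block the difference was 0.31 (adjusted p = 0.000387), which passed on p and stayed under the fold minimum. PB added to RA raised SLC18A2 by 1.58 (adjusted p = 7.05e-08), and RA added to PB gave -0.19 (95% interval -0.46 to 0.09). Of its exon bases, 2157 (52.3%) are shared with PDZD8, a gene on the opposite strand with a mean of 76.7 CPM against 77.5 CPM for SLC18A2. The library kit keeps strand, but the strand setting of the counting is not given in the sources used here, so reads from the shared bases could fall to either gene and the SLC18A2 counts are uncertain. PDZD8 itself differed by a log2 fold change of 0.23 with PB, -0.11 with RA and 0.12 with PB+RA.

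SLC18A1, the form typical of chromaffin cells, was at 3.79, 5.87, 3.13 and 4.34 CPM in DMSO and at 20.5, 26.8, 15.9 and 17.3 CPM in PB. RA libraries held 4.51, 5.66, 10.7 and 7.03 CPM and PB+RA libraries 11.7, 14.5, 21.2 and 16.8 CPM. PB and PB+RA lay above DMSO in every library, and the RA and DMSO ranges overlapped. SLC18A1 was 4.72-fold higher with PB (log2 fold change 2.24, SE 0.27, adjusted p = 4.83e-06) and 3.69-fold higher with PB+RA (1.88, SE 0.27, adjusted p = 1.54e-05). PB added to RA raised it by 1.18 (adjusted p = 0.00131). With RA the log2 difference was 0.71 (95% interval 0.12 to 1.29, adjusted p = 0.0565), and the replicates were split. It was 0.07 in replicates 1 and 2 (adjusted p = 0.860) and 1.22 in replicates 3 and 4 (adjusted p = 0.00196). The RA difference passed the test without DMSO replicate 2 (0.88), RA replicate 1 (0.85) or PB replicate 2 (0.69), and with DESeq2 (0.67, adjusted p = 0.0333). RA added to PB gave -0.36 (95% interval -0.89 to 0.18), with -0.87 in replicates 1 and 2 (adjusted p = 0.0116) and 0.17 in replicates 3 and 4.

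Promoter sequence is shown for 3 of the genes because they differ in response: SLC18A2 rose with PB, DBH rose with each drug, and DDC was not called. RefSeq promoter windows (GRCh38.p14) matched 4 of the 9 genes, DDC, DBH, SLC18A2 and MAOA, with 5 windows in all, and TH, PNMT, GCH1, SLC18A1 and SLC6A2 had no entry. The 250 bases before the start were searched on both strands for TGACGTCA (the cyclic AMP response element), TGAGTCA and TGACTCA (AP-1), AGGTCA (the core motif of retinoid receptors, which reads TGACCT on the other strand), TTTCCCGC and TTTGGCGC (E2F), AGATAA (bound by GATA factors) and CACGTG (E-box). Capitals mark a match.
SLC18A2, chr10:117240864-117241113, plus strand: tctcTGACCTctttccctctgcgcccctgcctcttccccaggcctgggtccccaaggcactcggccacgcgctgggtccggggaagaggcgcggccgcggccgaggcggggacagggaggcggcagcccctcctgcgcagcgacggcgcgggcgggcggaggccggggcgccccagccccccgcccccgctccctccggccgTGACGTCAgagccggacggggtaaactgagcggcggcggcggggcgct
DBH, chr9:133636113-133636362, plus strand: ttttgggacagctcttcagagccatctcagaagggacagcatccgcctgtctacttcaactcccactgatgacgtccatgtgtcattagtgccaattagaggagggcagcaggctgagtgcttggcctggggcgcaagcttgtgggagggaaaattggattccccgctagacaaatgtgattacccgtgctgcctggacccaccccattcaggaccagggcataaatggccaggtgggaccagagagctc
DDC, chr7:50565406-50565655, minus strand: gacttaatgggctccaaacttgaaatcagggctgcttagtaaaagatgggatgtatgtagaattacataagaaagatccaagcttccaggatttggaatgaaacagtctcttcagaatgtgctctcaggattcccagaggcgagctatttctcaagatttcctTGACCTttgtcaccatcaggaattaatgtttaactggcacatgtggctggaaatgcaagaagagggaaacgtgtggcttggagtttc
The SLC18A2 window held the cyclic AMP response element at position -48 from the start, which 1.65% of 35116 promoters of this length held, and a retinoid receptor motif at -246. The same motif stood at -87 in this DDC window, and 12.1% of promoters held one. The DDC windows belong to different starts, and which start these cells use was not tested. The DBH window, the other DDC window and the MAOA window held none of the searched letters, which says only that these letters are not in the windows. AP-1 letters were in 4.20% of all promoters, E2F letters in 1.93%, GATA letters in 9.17% and the E-box in 6.34%.

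SLC6A2, which returns noradrenaline to the cell, had the smallest SE of the 9 genes in each comparison with DMSO. It was 482, 519, 487 and 489 CPM in DMSO, and 801, 771, 914 and 890 CPM in PB. RA libraries held 598, 623, 649 and 589 CPM, and PB+RA libraries 905, 847, 969 and 895 CPM. The DMSO, RA and PB libraries formed 3 ranges that did not overlap, and PB+RA overlapped PB. SLC6A2 rose 1.71-fold with PB (log2 fold change 0.77, SE 0.06, adjusted p = 2.74e-08) and 1.79-fold with PB+RA (0.84, SE 0.06, adjusted p = 2.88e-09). With RA it differed by 0.31 (SE 0.06, adjusted p = 0.000967), which passed on p and stayed under the fold minimum. PB added to RA raised it by 0.54 (adjusted p = 1.25e-06), and this call was lost without PB+RA replicate 3 (0.48) and with the GC and length correction (0.48), both under the minimum. RA added to PB gave 0.07 (95% interval -0.06 to 0.20). On GRCh37, 2304 of its exon bases are shared with a transcript of unassigned type on the same strand.

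MAOA stood at 113, 116, 69.5 and 78.4 CPM in DMSO and at 171, 158, 101 and 109 CPM in PB. RA libraries read 149, 147, 96.1 and 114 CPM and PB+RA libraries 148, 145, 103 and 122 CPM. The groups overlapped, because replicates 1 and 2 were higher than replicates 3 and 4 in each of them, by 0.38 to 0.65 on the log2 scale. Against DMSO the log2 difference was 0.52 with PB (95% interval 0.06 to 0.97, adjusted p = 0.0525), 0.42 with RA (-0.03 to 0.87, adjusted p = 0.139) and 0.43 with PB+RA (-0.02 to 0.89, adjusted p = 0.0845), and none was called. Same-numbered replicates differed in the same direction in 4 of 4 pairs for each treatment, by 0.45 to 0.60 with PB. With the replicate number as a block, the PB difference was 0.51 with an adjusted p of 2.17e-08 and was called. It was also called without DMSO replicate 1 (0.59) or 2 (0.60), without PB replicate 3 (0.61) or 4 (0.58), and in replicates 1 and 2 alone (0.51), and the PB+RA difference was called in replicates 3 and 4 alone (0.54). Adding either drug to the other gave 95% intervals of -0.53 to 0.37 (RA added to PB) and -0.44 to 0.47 (PB added to RA).

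In PB+RA against PB, 2 of the 9 genes were called, PNMT higher and GCH1 lower, where 16.3% of all genes tested were called, 9.02% higher and 7.27% lower. In PB+RA against RA, 5 were called, all higher (TH, PNMT, SLC18A1, SLC18A2 and SLC6A2), where 29% were called and 14.9% called higher. DBH, DDC and MAOA were called in neither of these 2 comparisons. Counted by ranges that did not overlap, 6 of the 9 genes parted from DMSO with PB, 4 with RA and 6 with PB+RA, where 49.9%, 37.2% and 58.2% of all genes tested did so. By the same count, 2 parted from PB with PB+RA (31.4% of all genes tested) and 5 parted from RA with PB+RA (46.7%). DBH, DDC and MAOA were higher in replicates 1 and 2 than in replicates 3 and 4, without overlap, in all 4 groups.

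Ratios of counts inside a library do not depend on library size, and those given here were picked after the values were seen and carry no test. PNMT per 100 DBH counts was 0.830 ± 0.365 (SD, n = 4) in DMSO, 2.03 ± 0.596 in PB, 3.82 ± 0.940 in RA and 6.0 ± 0.713 in PB+RA. Every PB ratio was above every DMSO ratio, and every RA ratio above every PB ratio, so the last enzyme of the chain gained on the one before it. TH per 100 DDC counts was 15.5 ± 3.54 in DMSO, 37.4 ± 6.46 in PB, 38.8 ± 6.05 in RA and 59.8 ± 8.96 in PB+RA, with all PB+RA ratios above those of the other groups. SLC18A1 per 100 SLC18A2 counts ran from 9.77 to 22.9 in DMSO, 12.8 to 24.8 in PB, 9.82 to 29.4 in RA and 8.34 to 21.2 in PB+RA, and all 4 ranges overlapped. SLC18A2 per 100 SLC6A2 counts was 6.14 ± 0.940 in DMSO, 15.2 ± 2.62 in PB, 6.17 ± 1.03 in RA and 12.7 ± 2.18 in PB+RA. The libraries with PB held more vesicular relative to plasma membrane transporter RNA than all those without it.

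**Figure D3:**
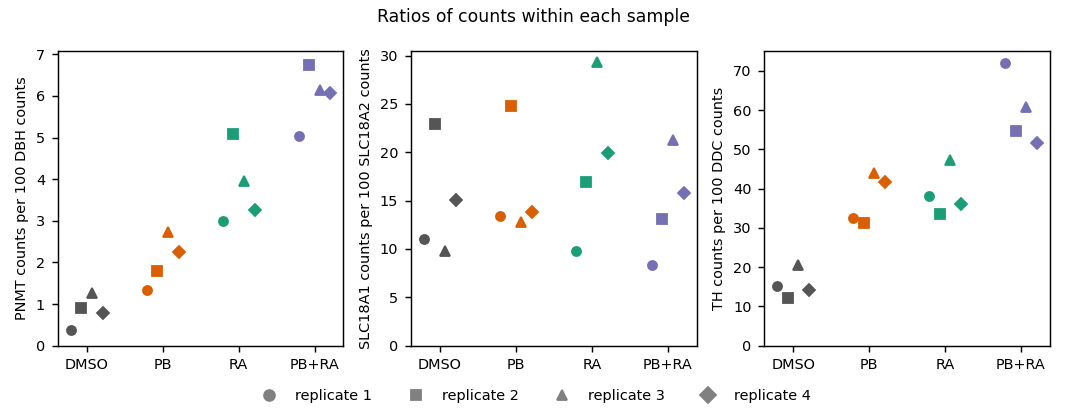
Ratios of raw counts within each library (vertical axes, from 0) for PNMT against DBH, SLC18A1 against SLC18A2 and TH against DDC, by group, with 1 marker shape per replicate number. PNMT per 100 DBH counts separates DMSO, PB and RA without overlap and reaches 5.03 to 6.75 in PB+RA, whereas the SLC18A1 ratio overlaps in all groups.

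The interaction term asks whether the change with both drugs equals the sum of the changes with each drug on the log2 scale. A negative value means that the combined change lay below that sum. For genes that were higher with both drugs this was a smaller rise than the sum, and for GCH1 a fall beyond it. All 9 estimates were negative, as were 57.0% of those of all genes tested. Only GCH1 was called (-0.58, SE 0.11, adjusted p = 0.00532), where 3.44% of genes were called and 3.02% called lower. GCH1 was the gene whose single changes summed to 0.04 while the combined change was -0.54. Without RA replicate 3 its interaction was -0.49, under the fold minimum. The largest estimate was that of PNMT, where the single changes summed to 4.88 and the combined change was 3.61 (interaction -1.27, 95% interval -2.07 to -0.47, adjusted p = 0.0664). TH had -0.74 (-1.23 to -0.25, adjusted p = 0.0794), SLC18A1 -1.06 (-1.85 to -0.27, adjusted p = 0.124), SLC18A2 -0.50 (-0.89 to -0.11, adjusted p = 0.145) and DBH -0.59 (-1.16 to -0.01, adjusted p = 0.260). With the replicate number as a block, TH (-0.76, adjusted p = 0.0289), DBH (-0.63, adjusted p = 0.00212) and PNMT (-1.27, adjusted p = 0.0341) were called as well, where 7.597% of all genes tested were called. TH was also called without PB+RA replicate 1 (-0.88) and PNMT without PB+RA replicate 2 (-1.43). DESeq2 called TH (-0.71, adjusted p = 0.0279) and PNMT (-1.24, adjusted p = 0.0120), and the GC and length correction called PNMT (-1.21). In replicates 3 and 4 alone, DBH (-0.84) and PNMT (-1.35) were called and TH (-0.93) was not. In replicates 1 and 2 alone, TH (-0.48), DBH (-0.37) and PNMT (-1.17) were not called. SLC6A2 at -0.24, MAOA at -0.50 and DDC at -0.11 completed the set. With the block, MAOA (-0.49, adjusted p = 7.01e-05) and SLC6A2 (-0.23, adjusted p = 0.0233) passed on p and stayed under the fold minimum, and MAOA was called in replicates 1 and 2 alone (-0.55, adjusted p = 0.00403).

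**Figure D4:**
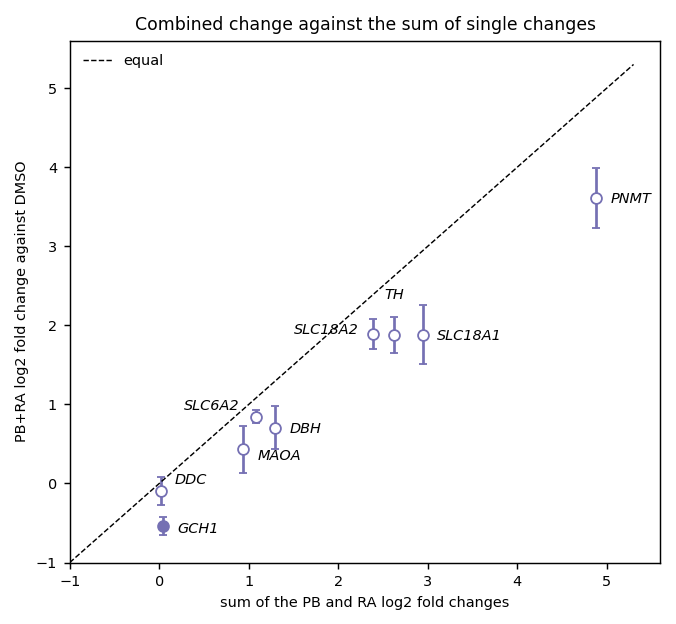
Log2 fold change of each of the 9 genes with PB+RA against DMSO (vertical axis) plotted against the sum of its changes with PB and with RA (horizontal axis), with error bars of 1 SE of the interaction term and a dashed line where the values are equal. All 9 points lie below the line, and the filled point, GCH1, is the only one called.

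Other genes of the pathway were counted from lists drawn up by function. Of all genes tested, 16.9% were called higher with PB, 10.8% with RA and 24% with PB+RA. The shares called lower were 11.3%, 2.54% and 17.9%. Among the 6 tested genes of the 7 in the tetrahydrobiopterin list, none was called higher with PB, RA or PB+RA. SPR, which makes the last step of the cofactor, was among those called lower with PB+RA, and the GCH1 feedback regulator GCHFR was under the filter. The median log2 fold change of the list was 0.05 with PB, -0.32 with RA and -0.10 with PB+RA, beside 0.03, 0.01 and 0.04 over all genes tested. In the breakdown list, 6 of 8 genes were tested, and ALDH3A2, an aldehyde dehydrogenase, was the only one called, higher with RA and with PB+RA. MAOB, the other monoamine oxidase, averaged 0.0792 CPM in DMSO and was under the filter. The list's median was -0.10, -0.10 and -0.06 for the same 3 treatments.

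Among the vesicle helper genes, 4 of 7 were called higher with PB, 2 with RA and 4 with PB+RA (16.9%, 10.8% and 24% of all genes tested), and none lower. The granin genes CHGA and CHGB, which pack amines in dense-core vesicles, averaged 1706 and 460 CPM in DMSO and 3875 and 2061 CPM in PB. CHGB had a log2 fold change of 2.17 with PB and 0.56 with RA, and CHGA had 1.18 with PB and -0.22 with RA, which was not called. SCG2, the other granin of the list, averaged 1655 CPM in DMSO and 1564 CPM in PB, had log2 fold changes of -0.08 with PB, -0.13 with RA and 0.08 with PB+RA, and was not called. ATP7A, the copper pump that supplies DBH, was higher with all 3 treatments, from 114 CPM in DMSO to 338 CPM in PB+RA. CYB561, which returns reducing power to DBH in vesicles, had log2 fold changes of -0.04 (PB), -0.17 (RA) and -0.19 (PB+RA) and was not called. The median over the list was 0.74 with PB, -0.13 with RA and 0.88 with PB+RA, beside 0.03, 0.01 and 0.04 over all genes tested.

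Among the receptors, 5 of 14 were tested. With PB, 2 were called higher and 2 lower (16.9% and 11.3% of all genes tested). With RA it was 1 and 3 (10.8% and 2.54%), and with PB+RA 1 and 4 (24% and 17.9%). The autoreceptor genes went in both directions. ADRA2A was called higher with all 3 treatments, with means of 3.49 CPM (DMSO), 8.25 (PB), 9.83 (RA) and 15.9 (PB+RA). ADRA2C was called lower with all 3, with means of 84.0, 43.4, 28.4 and 24.0 CPM. ADRA2B and the dopamine receptor DRD2 were also among those called lower with PB+RA. ADRA2B was near the floor, with means of 0.502 CPM (DMSO), 0.826 (PB), 0.0905 (RA) and 0.184 (PB+RA). With PB alone it was called higher (log2 fold change 0.72, adjusted p = 0.0419). The median of the list was -0.29 with PB, -1.34 with RA and -1.83 with PB+RA. Of the 4 tested genes in the membrane transport list, SLC29A4, which carries monoamines at low affinity, was called higher with PB and with PB+RA. The dopamine transporter SLC6A3 was lower with PB and higher with PB+RA, at a mean no higher than 1.39 CPM in any group, and the median of these 4 was -0.23, 0.26 and 0.29. Among the 4 genes related to serotonin, TPH1 alone was tested, and it was called higher with PB+RA, at a mean of 0.470 CPM.

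Transcription factors known to act on noradrenergic genes were all tested, 12 of 12. With PB, 3 were called higher (GATA3, NR4A2 and EPAS1) and 2 lower, NR4A1 among them (16.9% and 11.3% of all genes tested). With RA, 2 were called higher (EGR1 and NR4A2) and 2 lower, GATA3 among them (10.8% and 2.54% of all genes tested). With PB+RA, 3 were called higher (EGR1, NR4A2 and EPAS1) and 2 lower, NR4A1 among them (24% and 17.9% of all genes tested). The list's median was 0.17, -0.10 and -0.04. PHOX2A and HAND2, which maintain the noradrenergic state, were not called with any of the 3 treatments. PHOX2A differed by 0.12 with PB, 0.29 with RA and 0.39 with PB+RA. EGR1, which acts on the PNMT gene in chromaffin cells, averaged 115 CPM in DMSO, 128 in PB, 166 in RA and 196 in PB+RA.

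**Figure D5:**
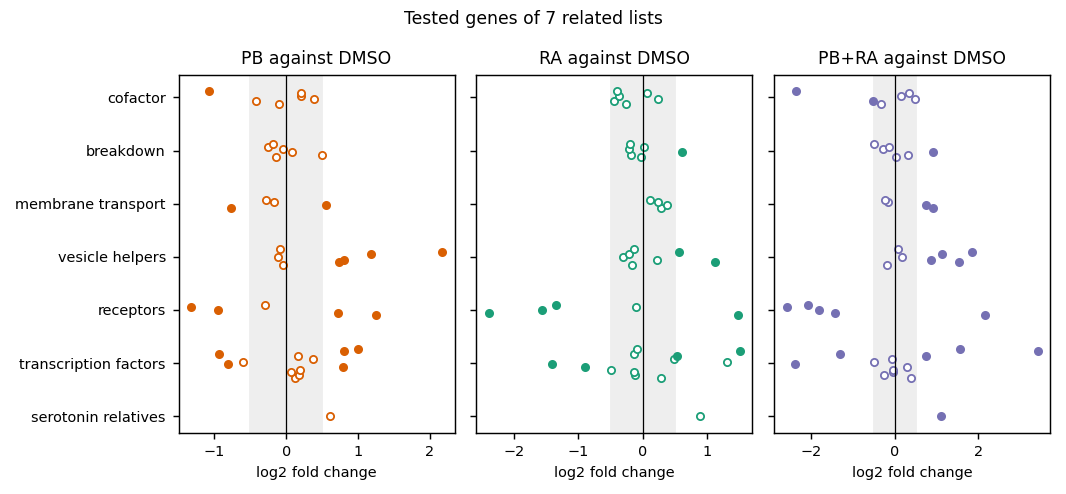
Log2 fold changes against DMSO (horizontal axis) of the tested genes in 7 lists related to the pathway (vertical axis), in 1 panel each for PB, RA and PB+RA. Each point is 1 gene, filled where it was called, and the grey band marks changes within 0.5. Vesicle helpers hold 4 called points on the right with PB and with PB+RA, and receptors hold called points on both sides of 0 in each panel.

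The genes most like each of the 9 across the 16 libraries were found by Pearson's r of log2 CPM, as a description, since the libraries share groups and replicate sets. TH was closest to TUBB3, the neuronal beta-tubulin, at r = 0.972, followed by DPYSL4 at 0.968. SLC18A2 was closest to GARNL3 (0.985) and SARM1 (0.982), and SLC6A2 to SRRM4, a neuronal splicing factor (0.982), and RGS11 (0.982). PNMT was closest to COL22A1, a collagen gene (0.972), and GCH1 to SHOX2 (0.946), to CAD, which starts pyrimidine synthesis (0.945), and to RFC3, a replication clamp loader (0.931). SLC18A1 had IMPACT (0.952) nearest, MAOA had RFPL4B (0.958) and the receptor kinase AXL (0.933), DBH had DNAJB5 (0.918) and DDC had LOC100507351 (0.921), which averaged 0.560 CPM. Among the 9 themselves the highest values were between SLC18A2 and SLC6A2 (0.924), TH and PNMT (0.911) and SLC18A1 and SLC6A2 (0.896), and the lowest were between GCH1 and PNMT (-0.57) and GCH1 and TH (-0.47).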

How the data were processed

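Poly(A) RNA was sequenced from 16 SK-N-BE(2)C libraries in 4 groups of 4. The authors trimmed reads with Trim Galore 0.6.4, aligned them to hg19 with STAR 2.6.1d and counted reads per gene in STAR's quantification mode (versions per the submitters' processing notes). The deposited raw counts were used for all tests, and the deposited CPM values, equal to counts scaled by each library total within 5e-12, gave the levels. The deposited table of the authors' own comparisons (DESeq2 1.32.0) holds fold changes and p-values and was not used. The annotation release is not given in the sources used here.

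Counts were fitted with edgeR 4.0.16 in R 4.3.3 (TMM, filterByExpr, robust quasi-likelihood, all 16 libraries, Benjamini-Hochberg over 15415 genes, calls at adjusted p below 0.05 and log2 fold change beyond 0.5). Gene models came from GENCODE lifted to GRCh37. The fit was tested on simulated data. The 9 genes, the related lists and the markers were chosen with earlier results of these data known; all members were described, and likeness named the 3 nearest genes. Values of some genes of these lists are not reported here. Same-numbered libraries deviated together from their group means in all 24 pairs (r from 0.330 to 0.573, against -0.49 to 0.447 in the 72 pairs with different numbers). The numbers were therefore taken to pair the samples in the replicate block and in the counts of pairs. The main fit ignored this pairing, so its SEs and intervals take in differences between replicate numbers. For MAOA with PB the SE was 0.21 in the main fit and 0.05 with the block. Alternatives were RLE size factors, a filter on a summed count above 10, DESeq2 1.42.0, the replicate block, a GC and length correction (spline with 5 degrees of freedom, 95.2% of tested genes with a gene model), each library left out, replicate sets alone, and a log2 minimum of 1. Their number of counts limits the precision of low genes such as PNMT and SLC18A1.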

Additional observations from a re-analysis of the deposited data

Results flagged for a closer look

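GCH1 in DMSO replicate 2 (68.8 CPM) stood apart from the other 3 DMSO libraries (59.7 to 60.8 CPM), with a gap of 0.877 of the group's range. It was the only one of the 36 groups of 4 values over the 9 genes to stand apart in this way, and chance alone gives about 1 in 20. The fall of GCH1 with PB+RA against DMSO was between 0.52 and 0.59 on the log2 scale over the fits that left out 1 library each.

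The effect of RA on GCH1 differed between cells with and without PB, by the interaction term (-0.58, adjusted p = 0.00532 by edgeR's quasi-likelihood test). RA against DMSO gave -0.12 and PB+RA against PB gave -0.70, and PB+RA was lower than PB in 4 of 4 same-numbered pairs. The GCH1 interaction was called in fits without each library in turn except without RA replicate 3 (-0.49).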

How the results depend on the processing

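Of 1341 values of the 9 genes under another setting, 1266 kept their direction and their side of the threshold, 16 lost a call, 31 gained one and 28 changed sign. All that changed sign were uncalled under the main settings. With a log2 minimum of 1, PB against DMSO had 4 called genes in place of 6 (10.9% of all genes tested called), RA against DMSO 2 in place of 3 (5.93%), PB+RA against DMSO 4 in place of 7 (20.2%), PB+RA against PB 1 in place of 2 (6.86%), PB+RA against RA 2 in place of 5 (11.5%) and the interaction 0 in place of 1 (1.10%). PB+RA against PB had 4 in replicates 1 and 2 alone (14.1%). The interaction had 3 with DESeq2 (3.11%), 4 with the replicate block (7.597%), 2 with the GC and length correction (3.06%), 4 with that correction and the block (6.94%), 2 in replicates 1 and 2 alone (3.33%), 3 in replicates 3 and 4 alone (5.002%) and 0 to 2 with 1 library left out (2.19% to 3.30%). The block changed no call beyond the 4 gained that are given in the report.

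Sign changes in PB+RA against PB were DBH 0.19 (replicates 1 and 2; -0.21 to 0.11 with 1 library left out), SLC18A1 0.17 and MAOA 0.077 (replicates 3 and 4; MAOA -0.18 to 0.064 with 1 left out), and SLC6A2 -0.0113 with the GC and length correction and -0.0105 with that correction and the block. In PB+RA against RA they were DDC -0.066 (replicates 1 and 2; -0.040 to 0.12 with 1 left out), DBH -0.092 (replicates 3 and 4; -0.053 to 0.29 with 1 left out) and MAOA -0.016 with the wider filter and -0.037 in replicates 1 and 2 (-0.081 to 0.091 with 1 left out). The DDC interaction was -0.17 to 0.0041 with 1 left out. The cause was not tested.

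The GC and length correction moved the median of all genes with RA from 0.01 to -0.09 and the share of called genes that were higher from 80.9% to 62.7%, and that share for the interaction from 12.1% to 24.4%. Strand use in counting, low counts of PNMT and SLC18A1 in DMSO and the use of 1 cell line limit what these data show.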
